A study of Sus scrofa with 21 samples.

Results

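The HOX genes of pig vessels were examined in RNA libraries from kidney and liver arteries, aorta and blood. The set was every gene of the deposited table whose pig Ensembl symbol was HOXA, HOXB, HOXC or HOXD followed by a number. This gave 34 of 24358 genes, with 8 in HOXA, 9 in HOXB, 9 in HOXC and 8 in HOXD. By paralogue number, 8 genes lay in 1 to 3, 13 in 4 to 8 and 13 in 9 to 13. HOXA4, HOXA6, HOXA13, HOXB9 and HOXD13 were not analysed here.

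HOX genes encode homeodomain transcription factors that lie in clusters, one after another along the chromosome. In the embryo their order in a cluster follows the order in which they are used from head to tail, so low paralogue numbers mark anterior and high numbers posterior positions. Adult smooth muscle cells and fibroblasts keep part of this pattern, and vessels from different levels of the body can differ in it. HOX proteins bind DNA together with cofactors of the PBX and MEIS families.

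In the RefSeq annotation of Sscrofa11.1, the build named in the submitters' processing notes, 32 of the 34 genes were found, all but HOXB4 and HOXD4. The matched members spanned chromosome 18 from 45388523 to 45480306 for HOXA and chromosome 12 from 24784953 to 24950661 for HOXB. They spanned chromosome 5 from 19151096 to 19268267 for HOXC and chromosome 15 from 81900962 to 81990026 for HOXD. HOXA5, HOXA7, HOXD3 and HOXD4 had counts that were not whole. HOXD3 and HOXD4 added up to whole counts, within 0.01, in 7 of the 7 libraries where either was not whole, and HOXA5 and HOXA7 in 2 of 2, so the split of reads within each pair is uncertain.

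The study tested an endovascular device for sampling the cells that line vessels. A 3D-printed microbrush gave 5 libraries from peripheral kidney artery and 5 from peripheral liver artery, and a Nitinol wire, the negative control, gave 2 from each. Surgically removed aorta, the positive control, gave 4 libraries, and whole blood gave 3. Pigs 243K and 248K gave the brush, wire and blood libraries, and pig 237053 gave all 4 aorta libraries, so that pig and aorta cannot be told apart. The labels used here give no segment of the aorta and no age or strain. Libraries of 1 pig are not separate animals, and p-values measure the spread between libraries.

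Total counts ran from 1144932 to 10188552 in the brush libraries, from 1946286 to 11128400 on the wire and from 1603229 to 3033008 in aorta. Blood 2 held 5634 counts over 302 genes, and liver brush 1 had counts for 3831 genes. The other brush libraries had 12651 to 19992 genes with at least 1 count, the wire libraries 9709 to 18291 and the aorta libraries 19349 to 20020. Summed CPM, counts per 1000000 of the library total, over 8 of 8 smooth muscle markers was 29656 to 47997 in aorta and 403 to 1304 on the wire. It was 4826 to 97590 in kidney brush and 612 to 76372 in liver brush, where liver brush 1, 2 and 4 held 612, 839 and 1268. Over 6 of 8 endothelial markers found in the table, the sum was 166 to 960 in brush, 247 to 646 on the wire and 94 to 151 in aorta. In bulk libraries fewer cells of a type and less RNA per cell cannot be told apart.

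HOX genes were detected widely, in blood as in vessels, and their number broadly followed the number of genes a library held. The kidney brush libraries had at least 1 count for 28 to 32 of the 34 HOX genes and the aorta libraries for 32 to 34. Blood 1 and blood 3 had 33 and 32, and blood 2 had none. The liver brush libraries 1 to 5 had 0, 13, 32, 28 and 15 HOX genes beside 3831, 12651, 19992, 18938 and 15010 genes in all. Kidney wire 1 and 2 had 8 and 29 beside 9709 and 18291 genes, and liver wire 1 and 2 had 22 and 1 beside 15698 and 10165. Kidney wire 2 and liver brush 3 and 4 thus lay within the kidney brush range. No HOX count in liver brush 1 allows a summed level of up to 1.24 CPM, and none in blood 2 a level of up to 532 CPM, for counting error only.

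**Figure D1:**
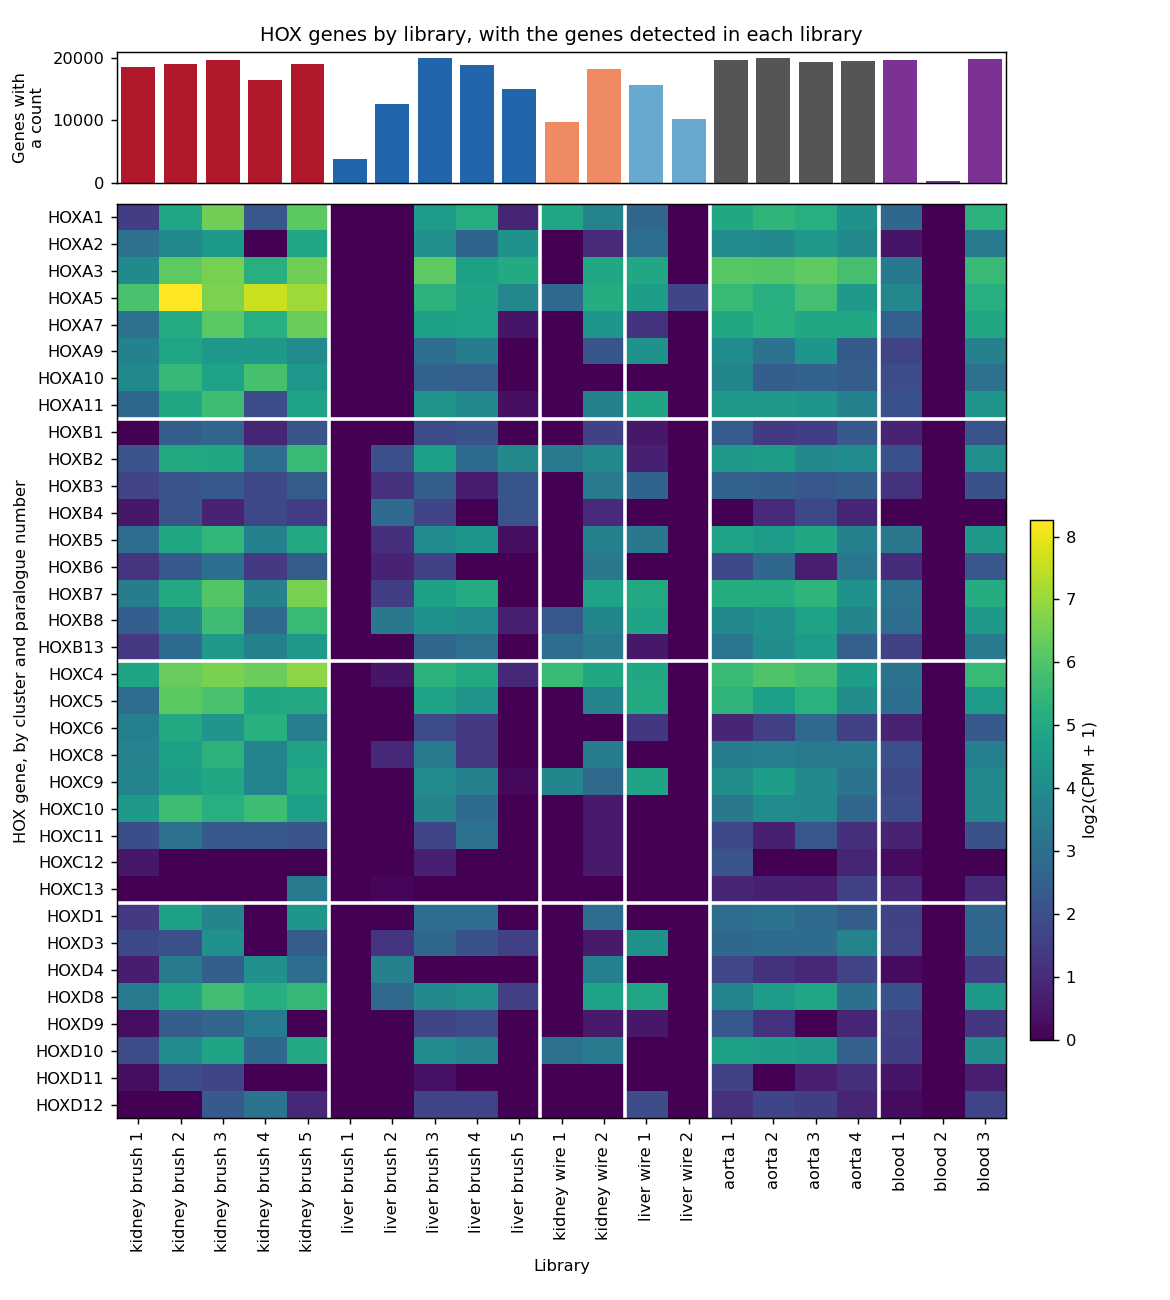
Heat map of the 34 HOX genes (rows, by cluster and paralogue number) in 21 libraries (columns), coloured by log2(CPM + 1), below bars of the number of genes with a count in each library. Kidney brush, aorta, blood 1 and blood 3 show nearly all rows filled, while liver brush 1 and blood 2 are empty. Liver brush 2 and 5, kidney wire 1 and liver wire 2 have counts in 13, 15, 8 and 1 of the rows.

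The mean summed HOX level was highest in kidney brush. The level was 263, 1066, 1101, 705 and 1076 CPM in kidney brush 1 to 5, and 0, 43.4, 463, 354 and 91.3 CPM in liver brush 1 to 5. The 2 groups overlapped through kidney brush 1, which lay below liver brush 3 and 4. Aorta held 340 to 601 CPM, the wire 2.34 to 325 CPM, blood 1 held 112.2 CPM and blood 3 held 483 CPM.

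Each cluster had a higher mean in kidney brush than in liver brush. HOXA summed to 392 ± 169 CPM in kidney brush and 83.7 ± 91.6 in liver brush (SD, n = 5 each). HOXC summed to 228 ± 79.1 against 37.9 ± 51.9 CPM. HOXB summed to 139 ± 99.8 against 46.1 ± 43.7 CPM, and HOXD to 82.5 ± 41.0 against 22.7 ± 22.0 CPM. In aorta the sums were 220 ± 42.1 CPM for HOXA, 115.6 ± 26.9 for HOXB, 118.8 ± 33.8 for HOXC and 55.9 ± 15.2 for HOXD (SD, n = 4). These levels are not divided by gene length, so a cluster is compared here only with itself in other groups.

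The position code was read as the share of a library's HOX counts in each paralogue range. Posterior genes, paralogues 9 to 13, took 17.0% to 27.8% of HOX counts in the 5 kidney brush libraries, 14.7% to 22.4% in the 4 aorta libraries, and 19.7% and 20.6% in blood 1 and blood 3. Liver brush 3 and 4 had 18.7% and 22.0%, inside that range. Liver brush 2 and 5 stood far below it. In liver brush 5, 3 of 688 HOX counts were posterior, 0.436% with an exact Clopper-Pearson 95% interval of 0.090% to 1.27%. In liver brush 2 it was 1 of 442 counts, 0.226% with an interval of 0.006% to 1.25%. Both intervals take each count as an independent draw and cover counting error only. Liver brush 2 and 5 held 10188552 and 7532593 counts over 12651 and 15010 genes.

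Anterior genes filled most of liver brush 5. Paralogues 1 to 3 took 76.7% of its HOX counts, against 7.12% to 24.7% in kidney brush and 26.7% to 37.6% in aorta. The genes behind this share were HOXA3 with 35.5% of the HOX counts, HOXA2 with 19.0% and HOXB2 with 15.3%, beside 14.4% for the central gene HOXA5. HOXA2 and HOXB2 are known for hindbrain and second pharyngeal arch patterning, and HOXA3 for the third arch, which gives rise to vessels of the neck. The smooth muscle markers summed to 76372 CPM in this library, the highest sum of the liver brush group, while HOXA10, HOXC6 and HOXC10 had no count.

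Liver brush 2 held a different set. Central genes, paralogues 4 to 8, took 86.7% of its HOX counts, and HOXD4, HOXB8, HOXB4 and HOXD8 took 25.6%, 20.4%, 14.7% and 14.3%. The split of reads between HOXD4 and the anterior gene HOXD3 is uncertain, and so is the split between the central and anterior shares here. All 8 HOXA genes had no count there. Its smooth muscle marker sum was 839 CPM. Liver brush 2 and 5 came from the same pig, 243K, and are its only liver brush libraries. Liver wire 1, also from the liver artery of pig 243K, had 23.6% of its HOX counts in posterior and 20.5% in anterior genes. Posterior genes took 22.3% and 13.0% in kidney wire 1 and 2. Liver wire 2 had 26 HOX counts, with 0 in posterior genes.

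**Figure D2:**
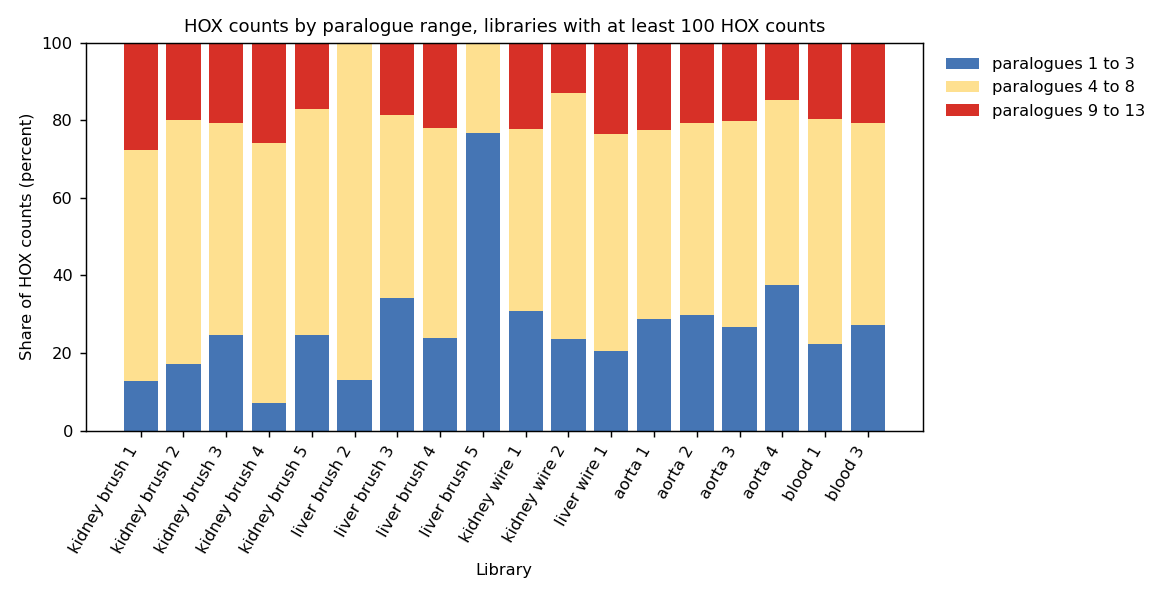
Stacked bars give the percent of HOX counts in paralogues 1 to 3, 4 to 8 and 9 to 13 for each of the libraries with at least 100 HOX counts. Liver brush 2 and 5 have almost no share in paralogues 9 to 13, at 0.226% and 0.436%, and liver brush 5 is mostly paralogues 1 to 3, at 76.7%.

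Of all 34 HOX genes, 6 had every kidney brush library above every liver brush library: HOXA5, HOXA9, HOXA10, HOXC6, HOXC8 and HOXC10. Such a separation was found for 1.11% of the 15013 genes tested in this comparison, 167 genes in all, and all 6 were among the 23 HOX genes tested. No HOX gene had every liver brush library above every kidney brush library, a pattern seen for 0.04% of genes tested. The 6 lie in HOXA and HOXC and in the central and posterior ranges, and none is anterior or from HOXB or HOXD.

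HOXA10, a posterior gene known for its role in lumbar vertebrae and uterus, lies on chromosome 18 from 45393525 to 45403259. Its level was 14.4, 44.7, 26.6, 56.8 and 20.1 CPM in kidney brush 1 to 5 and 0, 0, 4.99, 4.83 and 0 CPM in liver brush 1 to 5. Kidney brush 4 was highest, and the lowest kidney brush library, at 14.4 CPM, lay well above the highest liver brush library. The means were 32.5 ± 17.7 and 1.96 ± 2.69 CPM (SD, n = 5 each).

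HOXC6, a central gene known from the thoracic region, lies on chromosome 5 from 19230227 to 19243522. Its level was 10.8, 31.4, 18.8, 37.0 and 10.48 CPM in kidney brush 1 to 5 and 0, 0, 2.66, 1.61 and 0 CPM in liver brush 1 to 5. As for HOXA10, kidney brush 2 and 4 were the highest and liver brush 1, 2 and 5 had no count.

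HOXC10, a posterior gene known for lumbar motor neurons, lies on chromosome 5 from 19197810 to 19202975. It stood at 21.2, 51.1, 35.2, 51.0 and 24.5 CPM in kidney brush 1 to 5 and at 0, 0, 12.6, 6.44 and 0 CPM in liver brush 1 to 5. HOXA5, a central gene known for the neck and lung, lies on chromosome 18 from 45429691 to 45432723. It stood at 58.4, 306, 98.0, 191 and 135 CPM in kidney brush and at 0, 0, 38.4, 27.4 and 13.1 CPM in liver brush. HOXA5 was the only one of these 4 genes with counts in liver brush 5.

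HOXC8, a gene of the brachial and thoracic region, ran from 11.7 to 38.3 CPM in kidney brush and from 0 to 9.65 CPM in liver brush. HOXA9, which is also used by blood stem cells, ran from 11.3 to 28.5 CPM and from 0 to 10.2 CPM. The gap was narrowest for HOXA9, whose lowest kidney brush library was at 11.3 CPM.

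**Figure D3:**
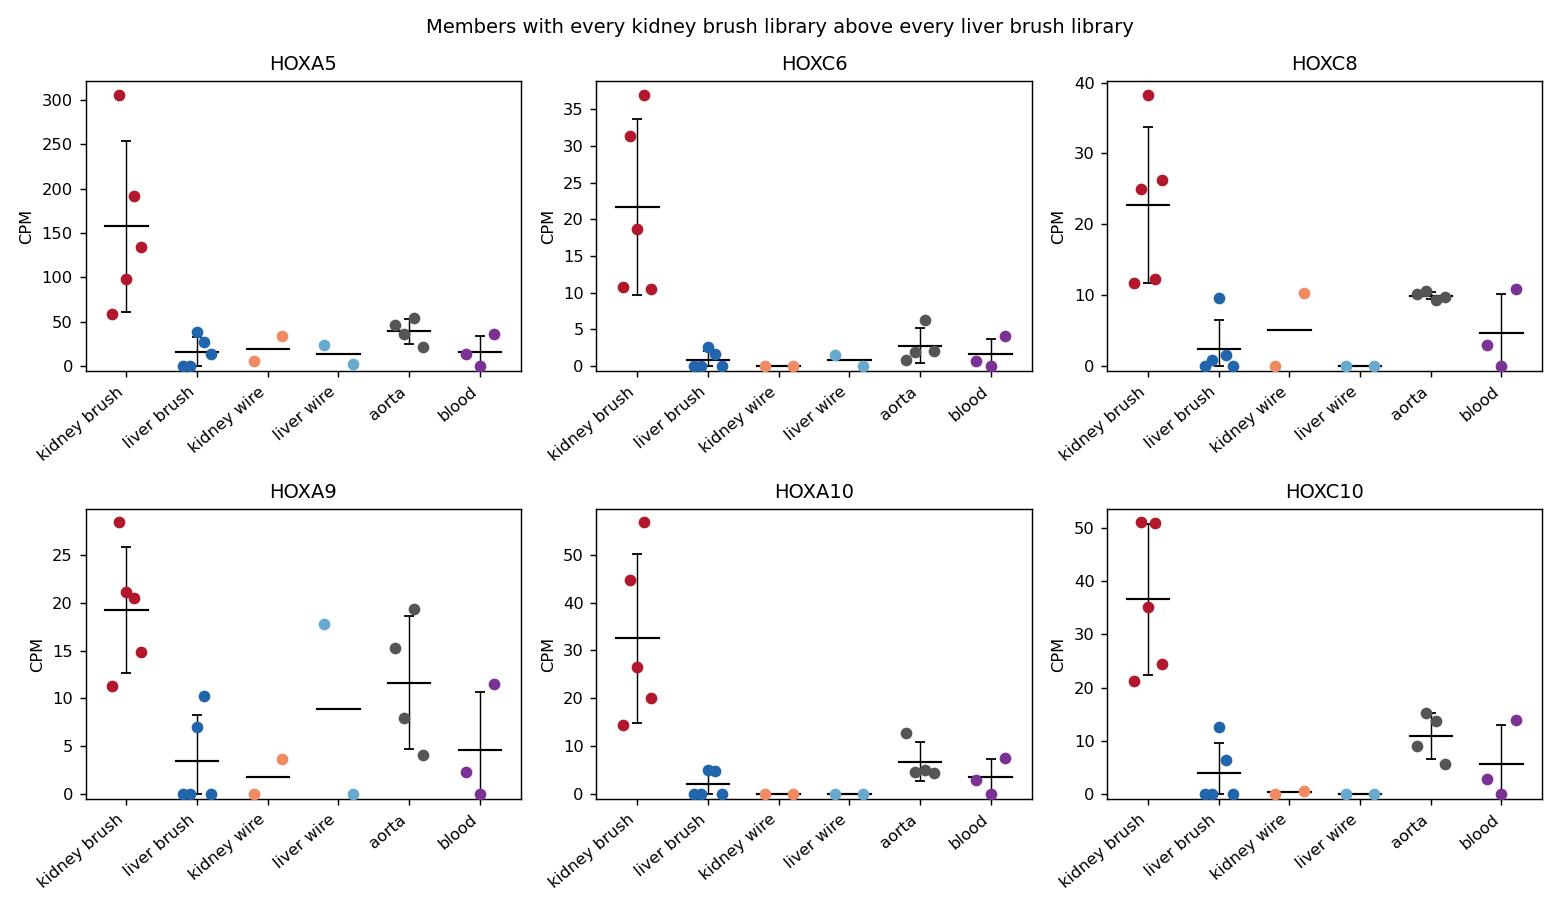
CPM of the 6 separated genes in each library by group, with points for libraries, a line at the mean and bars of 1 SD, cut at 0, in groups of 3 or more. For HOXA10 the kidney brush libraries lie between 14.4 and 56.8 CPM, above all liver brush libraries, all 4 wire libraries, which are at 0, and all aorta libraries.

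The separation did not reach significance across all genes. The edgeR quasi-likelihood test with Benjamini-Hochberg adjustment called 0 of 15013 genes between kidney and liver brush (0.0%), HOX genes included, and DESeq2 called 66 genes (0.44%) but gave no adjusted p for 13971 genes, among them all 23 HOX genes tested. The log2 fold changes of all 23 HOX genes tested were above 0 (22 with limma voom), with a median of 1.49 where the median over all genes tested was 0.50. Above 0 were 21 of 23 without liver brush 1, 21 of 24 in pig 243K alone and 25 of 29 in a common fit of all libraries. A gene could pass the filter on low counts through 1 of the 2 groups alone, and without that filter 33 of 34 were above 0. At an unadjusted edgeR p under 0.05 were 4 of the 23 HOX genes and 238 genes in all, 1.59% of those tested.

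Of the HOX genes HOXC6 had the largest difference, a log2 fold change of 4.52 with SE 1.53 (edgeR unadjusted p = 0.00618, adjusted p = 0.9998). HOXA10 followed with 3.91 and SE 1.48 (unadjusted p = 0.0133, same adjusted p). The other 2 were HOXA5 with 3.03 (SE 1.16) and HOXC10 with 3.11 (SE 1.44). In HOXB the smallest p belonged to HOXB13 with 1.73 (SE 1.51), and in HOXD to HOXD8 with 1.30 (SE 1.19), neither of which passed 0.05 before adjustment.

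Along the clusters the medians were 0.68 for the 5 anterior genes tested, 1.62 for the 11 central genes and 1.73 for the 7 posterior genes. By cluster they were 2.39 for HOXC, 1.45 for HOXA, 1.18 for HOXB and 1.17 for HOXD. The smallest values were those of HOXD4 at 0.04, HOXA2 at 0.24, HOXB8 at 0.41 and HOXB2 at 0.48, and the standard errors of these genes were 1.22 to 1.61. The 11 HOX genes that did not pass the filter on low counts are not in these medians.

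**Figure D4:**
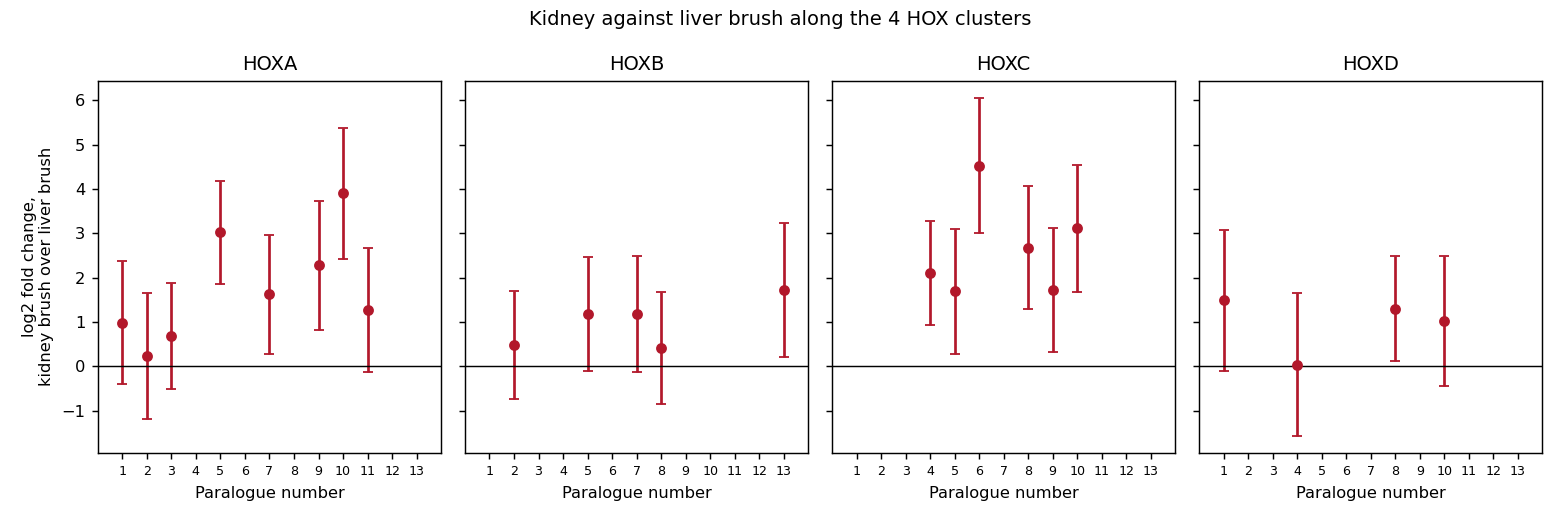
Log2 fold change of kidney over liver brush (vertical axis, bars of 1 SE) against paralogue number for the 23 HOX genes tested, a panel per cluster. All points lie above 0, with HOXC6 at 4.52 and HOXA10 at 3.91 the highest and HOXD4 at 0.04 the lowest.

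Within pig 243K, with 3 kidney and 2 liver brush libraries, edgeR called 8 of 24 HOX genes higher in kidney brush, where 5.36% of 16224 genes were called higher. They were HOXA7, HOXA9, HOXA10, HOXC4, HOXC5, HOXC6, HOXC9 and HOXC10, all of HOXA or HOXC. HOXA10 had a log2 fold change of 9.75 with SE 1.78 (edgeR adjusted p = 0.0429). HOXC6 had 9.14 with SE 1.97 (adjusted p = 0.0431). These sizes depend on how a count of 0 is treated, since both liver brush libraries of this pig, 2 and 5, had no count for either gene.

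Within pig 248K, with 2 kidney and 3 liver brush libraries, no HOX gene was called (0.0% of 16115 genes) and the log2 fold changes were 2.57 for HOXA10 and 3.30 for HOXC6. Every kidney brush library of pig 248K lay above its liver brush libraries for 7 HOX genes, all 7 among the 23 tested, where 7.45% of genes tested did so. In pig 243K this held for 21 HOX genes, with 18 among the 23 tested, where 43.8% of genes tested did so. Both sets must hold all 6 genes named above, since these separated over the libraries of both pigs. The difference between pigs was tested as an interaction of organ and pig over the brush libraries, where edgeR called 2 of 17453 genes (0.0115%) and 0 of 29 HOX genes, with a smallest adjusted p among them of 0.317. At an unadjusted p under 0.05 were 11 of the 29 HOX genes and 13.8% of all genes tested. The interaction of organ and device over brush and wire gave 0 calls among 17809 genes (0.0%), with 2 of 29 HOX genes and 2.95% of all genes at an unadjusted p under 0.05.

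HOX levels were next set beside those of olfactory receptor genes, which are best known from the nose, although some are also used in vessels, kidney and white cells. The table named 64 of them, and their sum serves here as a reference level only. Their summed level was 106.3 to 1759 CPM in kidney brush, 289 to 924 in aorta, and 148 and 678 in blood 1 and blood 3. In liver brush 1 to 5 it was 0, 0, 626, 680 and 11.02 CPM, so the 2 libraries with almost no posterior HOX counts also had few or no olfactory receptor counts. Whether counts in such genes came from RNA or from carried-over genomic DNA was not tested.

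The ratio of HOX to olfactory receptor counts was 0.604 to 1.18 in aorta and 0.761 and 0.711 in blood 1 and 3. Liver brush 3 and 4 had 0.740 and 0.521. Kidney brush 1, 2 and 4 had 2.47, 1.38 and 2.57, above aorta and blood, and kidney brush 3 and 5 had 0.626 and 0.720, within their range. Kidney wire 1 and 2 and liver wire 1 had 0.270, 0.665 and 0.613. No ratio was taken with fewer than 100 olfactory receptor counts. This left out liver brush 2, with 442 HOX counts beside 0, and liver brush 5, with 688 beside 83. A high ratio thus cannot be called particular to kidney brush. Smooth muscle markers summed to 27749, 33520 and 97590 CPM in kidney brush 1, 2 and 4 and to 6689 and 4826 CPM in kidney brush 3 and 5. They summed to 46195 and 1268 CPM in liver brush 3 and 4, 29656 to 47997 CPM in aorta, and 66.2 and 159 CPM in blood 1 and 3. The part of smooth muscle content in the HOX values was not tested.

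**Figure D5:**
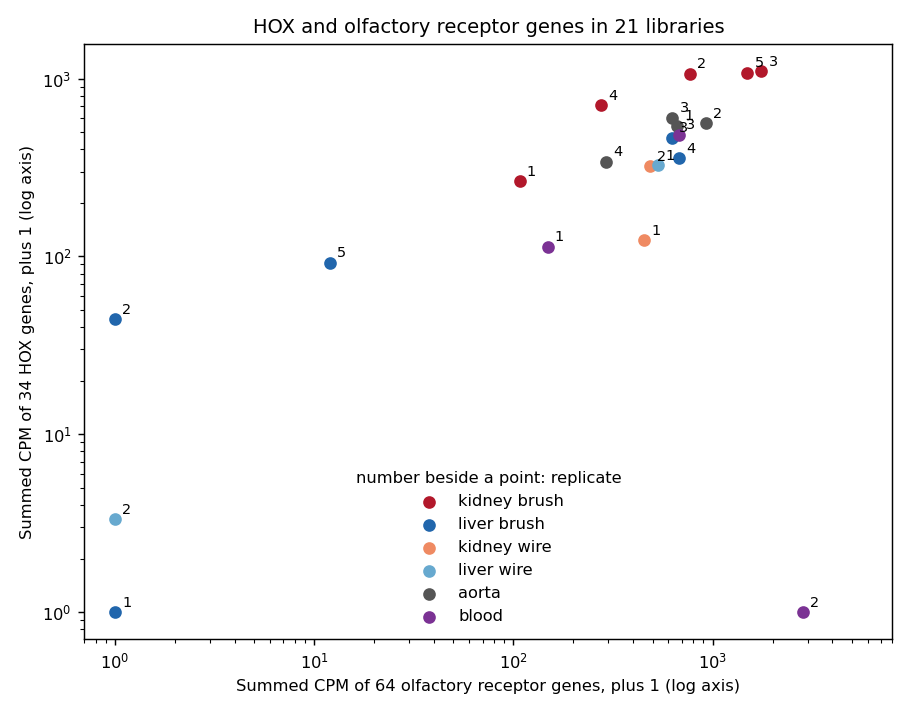
Summed CPM of the 34 HOX genes against summed CPM of 64 olfactory receptor genes, plus 1 and on log axes, for each of the 21 libraries, coloured by group and numbered by replicate. Aorta, blood 1 and 3, liver brush 3 and 4 and kidney brush 3 and 5 have ratios of 0.521 to 1.18. Kidney brush 1, 2 and 4 have higher ratios, at 2.47, 1.38 and 2.57, and kidney wire 1 a lower one, at 0.270. Liver brush 2 and 5 hold 43.4 and 91.3 CPM of HOX beside 0 and 11.02 CPM of olfactory receptor genes.

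Per 1000 olfactory receptor counts, HOXA10 had 136, 58.0, 15.1, 207 and 13.5 counts in kidney brush 1 to 5. It had 7.98 and 7.10 in liver brush 3 and 4, 4.99 to 19.3 in aorta and 19.2 and 10.97 in blood 1 and 3. Kidney brush 1, 2 and 4 were thus above every aorta and blood library, and kidney brush 3 and 5 were not.

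HOXC6 had 101.7, 40.7, 10.7, 135 and 7.02 counts per 1000 in kidney brush 1 to 5 and 4.26 and 2.37 in liver brush 3 and 4. Aorta and blood held 1.28 to 9.95. HOXA5 had 549, 397, 55.5, 698 and 90.1 in kidney brush, and aorta and blood held 38.9 to 89.5. The posterior gene HOXA11 did not follow this split: it had 55.1, 37.7, 28.9, 10.51 and 17.5 in kidney brush against 21.7 to 39.0 in aorta and blood.

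On this scale 5 HOX genes had all kidney brush libraries above the 2 liver brush libraries with enough counts, where 0.953% of genes tested did so. HOXA10, HOXC6 and HOXC8 are among the 6 genes that separated by CPM, while HOXD4 and HOXD8 are not, and HOXA5, HOXA9 and HOXC10 did not separate here. More than 2 times the highest aorta or blood value was reached by 9 HOX genes in kidney brush 1, 8 of them among the 26 tested, beside 8.08% of all genes tested. It was reached by 5 in kidney brush 2, all tested, beside 0.542% of genes, and by 12 in kidney brush 4, with 8 tested, beside 6.4%. No HOX gene reached it in kidney brush 3 or 5 (0.0536% and 0.0477% of genes) or in liver brush 3 or 4 (0.292% and 0.322%).

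HOXA10 had no count in any of the 4 wire libraries, whose totals add up to 20164174 counts. Over that total a count of 0 allows up to 0.149 CPM, for counting error only and not for the spread between libraries. Set against that limit, the kidney brush mean was at least 219-fold higher and the mean of all 10 brush libraries at least 115.9-fold higher. The aorta mean was at least 45.1-fold higher. Liver wire 2 held 55.2% of the wire counts, and without it the limit was 0.332 CPM and the bounds were 97.9-fold, 51.9-fold and 20.2-fold. HOXC10 was at 0, 0.514, 0 and 0 CPM in kidney wire 1 and 2 and liver wire 1 and 2. HOXC6 was at 0, 0, 1.56 and 0 CPM in the same order. The wire libraries held other HOX genes: HOXC4, a central gene, stood at 47.4, 29.8, 29.8 and 0 CPM, inside its range of 23.0 to 63.0 CPM in aorta in the first 3.

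For 6 HOX genes every kidney brush library was above every wire library, and 5 of them were among the 26 tested, where 6.93% of genes tested separated in this way. They were HOXA5, HOXA10, HOXC6, HOXC8, HOXC10 and HOXC11. With liver brush included no HOX gene separated brush from wire in either direction, a pattern seen for 0.0426% of genes tested with brush above wire and 0.0122% with wire above brush.

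Between brush and wire edgeR called 0 of 16439 genes (0.0%), and 3 of 26 HOX genes had an unadjusted p under 0.05, as did 3.15% of all genes tested. They were HOXA10 with a fitted log2 fold change of 8.42 (SE 2.39, edgeR adjusted p = 0.502), HOXC10 with 6.82 (SE 2.12, adjusted p = 0.633) and HOXC6 with 4.12 (SE 1.94). DESeq2 called HOXA10 (adjusted p = 0.00830) and HOXC10 (adjusted p = 0.00953) higher in brush, as it did 0.584% of all genes tested. The HOX median was 0.56 beside 0.17 for all genes. It was 0.26 without liver wire 2, 1.60 without kidney wire 2 and 7.14 in pig 248K alone, where the median of all genes was 1.11. In HOXB the smallest p in each direction belonged to HOXB5 at 0.98 (SE 1.43) and HOXB3 at -0.67 (SE 1.40), and in HOXD to HOXD1 at 1.44 (SE 1.75) and HOXD3 at -0.83 (SE 1.43).

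Set against aorta, brush as a whole had no HOX gene that passed, at an unadjusted or an adjusted p. The edgeR test called 21 of 16776 genes (0.125%), none of them among the 26 HOX genes tested, and 4.8% of genes had an unadjusted p under 0.05. HOXC6 stood at 1.98 (SE 1.36), HOXD4 at 2.02 (SE 1.46) and HOXA10 at 1.30 (SE 1.24) on the log2 scale. All 7 HOXB genes tested and all 7 anterior genes tested had values below 0, as they did with RLE scaling (5 of each with limma voom), and the HOX median was -0.40 beside -0.17 for all genes. With kidney libraries alone the HOX median was 0.05 beside 0.05 for all genes, and with liver libraries alone it was -1.42 beside -0.48.

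Kidney brush alone stood above aorta in every library for 5 of the 6 genes that separated it from liver brush, all but HOXA9, which reached 19.3 CPM in aorta. HOXA10 was at 12.8, 4.62, 4.99 and 4.43 CPM in aorta 1 to 4, and HOXC6 at 0.852, 1.98, 6.24 and 2.02 CPM. The lowest kidney brush library was above the highest aorta library for HOXA5, HOXA10, HOXC6, HOXC8 and HOXC10, 5 of the 34, where 3.14% of genes tested did so. With kidney libraries alone, edgeR gave log2 fold changes of 2.98 for HOXC6 (SE 0.72, adjusted p = 0.103) and 2.23 for HOXA10 (SE 0.59, adjusted p = 0.139), and no HOX gene was called. With liver libraries alone HOXA10 stood at -1.72 (SE 1.52).

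Wire differed from aorta in 546 of 15313 genes by edgeR (3.57%), and none of the 23 HOX genes tested was called. HOXA10 had a fitted log2 fold change of -7.02 (SE 1.61, edgeR adjusted p = 0.0536) and HOXC10 one of -5.90 (SE 1.52, adjusted p = 0.0583). Both were called lower on the wire by DESeq2, where 3.23% of genes were called lower, with adjusted p-values of 0.00484 and 0.000410. They were also called by limma voom with quality weights, where 1.59% of genes were called lower, with adjusted p-values of 0.0274 and 0.0303. Without kidney wire 2, edgeR called HOXA10, HOXC8, HOXC10 and HOXD1 lower on the wire, where 6.43% of genes were called lower. With liver wires alone it called 6 lower, HOXA10, HOXB2, HOXC8, HOXC10, HOXD1 and HOXD10, where 10.4% of genes were called lower.

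For 7 HOX genes every aorta library was above every wire library, and 5 of them were among the 23 tested, where 20.6% of all genes tested did so. The 7 were HOXA2, HOXA3, HOXA7, HOXA10, HOXC10, HOXC11 and HOXC13. The share among the HOX genes was thus near that of genes at large. The HOX median was -0.93 beside -0.29 for all genes, and HOXB3, HOXC9 and HOXD8 were the 3 genes tested with values above 0, at 0.09, 0.19 and 0.13, which all turned below 0 with RLE scaling.

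Blood held HOX counts over the whole range of paralogues. HOXA10 was at 2.83, 0 and 7.44 CPM in blood 1 to 3 and HOXC6 at 0.755, 0 and 4.03 CPM. Blood 3 was higher than blood 1 in both, as it was in olfactory receptor genes. The edgeR test of brush against blood called 2 of 16874 genes (0.0119%) and none of the 25 HOX genes tested, none of which had an unadjusted p under 0.05 beside 4.2% of all genes. All 25 had log2 fold changes above 0 (22 with limma voom), with a median of 0.96 beside 0.40 for all genes. That fit includes blood 2, which had no HOX count. Without blood 2, 25 of 30 HOX genes tested were above 0, with a median of 0.66 beside 0.13. With liver libraries alone 16 of 21 were above 0. HOXD4 had the smallest p with 3.28 (SE 1.80). The smallest p of HOXA, HOXC and HOXB belonged to HOXA5 with 2.16 (SE 1.37), HOXC6 with 2.52 (SE 1.62) and HOXB2 with 1.05 (SE 1.38), and HOXA10 stood at 2.03 (SE 1.48). For 6 HOX genes every kidney brush library was above every blood library, HOXA5, HOXA10, HOXB4, HOXC6, HOXC8 and HOXC10, with 5 of them among those tested, where 6.34% of genes tested did so.

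These comparisons share libraries, since the brush libraries enter 4 of them and aorta and wire 2 each, so their values are not independent of each other.

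No cofactor, chromatin regulator or retinoic acid gene of the lists was called in any of the 5 comparisons. Of the HOX cofactors 6 of 9 were tested between kidney and liver brush, 4 with values above 0 and 2 below, and none passed. The same comparison tested 20 of 24 regulators of HOX chromatin, 12 of 17 retinoic acid genes, 13 of 17 neighbours of the clusters and 18 of 28 other regional transcription factors, with none called. The medians of these lists were 0.16, 0.31, 0.75, 0.16 and 0.78 in that order of lists, beside 0.50 for all genes.

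TAX1BP1, an autophagy receptor gene beside the HOXA cluster, had an unadjusted edgeR p of 0.0177 between kidney and liver brush. It was at 89.9 to 151 CPM in kidney brush and 121.5 to 645 CPM in liver brush, with a log2 fold change of -2.16 (SE 0.86), the direction opposite to that of the HOX genes. No member of the 5 lists was called between brush and wire, brush and aorta or brush and blood.

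Between wire and aorta 2 members of the lists were called, where 3.57% of all genes tested were called. They were 1 of 12 neighbours of the clusters tested and 1 of 20 other regional transcription factors tested. None was called among the 6 cofactors, 21 regulators and 14 retinoic acid genes tested. SKAP2, an adaptor gene of white cells beside the HOXA cluster, was at 114.8, 92.5, 56.3 and 137 CPM on the wire and at 29.4, 39.2, 16.2 and 15.7 CPM in aorta. It was higher on the wire with a log2 fold change of 3.10 (SE 0.62, edgeR adjusted p = 0.0204). White cell markers, 8 of 8 in the table, summed to 668 to 888 CPM on the wire and 228 to 359 CPM in aorta, and their part in the SKAP2 value was not tested. PRRX2, a homeobox gene of mesenchymal cells, had no count on the wire and was at 8.94, 6.26, 18.1 and 13.7 CPM in aorta. Its aorta mean of 11.8 CPM was at least 79.0-fold higher than what a count of 0 over the 4 wire libraries allows, and at least 35.4-fold higher without liver wire 2 (edgeR adjusted p = 0.0412 with all 4). As with HOXA10, the groups did not overlap.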

How the data were processed

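Bulk RNA of 21 pig libraries was measured. Per the labels' protocols, extraction used the RNAdvance Tissue kit and library preparation used SMARTer Pico. Salmon and DESeq2 with Sscrofa11.1 are named in the submitters' processing notes; versions and the annotation release are not given in the sources used here. The deposited values were estimated counts per gene, merged over samples and not scaled, of which 11.9% were not whole; they were rounded for tests. Symbols came from a supplied table (14692 of 24358 genes).

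Only the groups compared entered each fit, made by edgeR 4.0.16 under R 4.3.3 (TMM, filterByExpr with a minimum count of 10, robust quasi-likelihood test, Benjamini-Hochberg over all genes tested, called under 0.05). Levels are CPM of the library total. Intervals and limits (3 counts for a count of 0) cover counting error only. HOX members, gene lists and tests were chosen with earlier results of these data known. HOXA10, HOXC6, called members and the member with the smallest p per cluster and direction were given full statistics; from other lists, called members, and otherwise up to 4 by smallest p. HOXA5 and the other separated genes were named after their values were seen. Olfactory receptor genes, fits within a pig, interactions limits without liver wire 2 and the separation of kidney brush from wire, aorta and blood were chosen after seeing the data; ratios used libraries with at least 100 olfactory receptor counts.

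Pigs pair kidney and liver brush by the labels; the correlation of pig differences between organs was 0.020. Alternatives were RLE scaling, no filter, DESeq2 1.42.0, limma 3.58.1 voom with quality weights, a common fit, the pig as a block, each organ, libraries of at least 5000 genes and each replicate left out. Tests were run on simulated data. No library was a copy: at most 1.63% of counts were equal between 2 libraries.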

Additional observations from a re-analysis of the deposited data

Results flagged for a closer look

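Of 80 sets of 4 or 5 libraries checked for a library far from the others, 11 had one. The check's rate of about 1 in 20 assumes a normal spread, so 11 of 80 cannot be set against it. A gene with counts in only 1 library of a group is always flagged. Kidney brush 4 had the fewest HOX genes of its group, 28. HOXA10 was at 12.8 CPM in aorta 1, above the other 3 aorta libraries. HOXD3, whose reads are shared with HOXD4, was high in kidney brush 3 at 17.2 CPM, in liver wire 1 at 17.6 CPM and in aorta 4 at 11.9 CPM. HOXD4 was at 11.06 CPM in liver brush 2 and at 10.8 CPM in kidney wire 2, with no count in the other libraries of either group. On the wire, kidney wire 2 alone had counts for HOXB6 (8.73 CPM), HOXC10 (0.514 CPM) and HOXD1 (6.68 CPM), and liver wire 1 alone for HOXC6 (1.56 CPM). No HOX gene was called by edgeR in the interaction tests of organ with pig or with device, where 11 of 29 and 2 of 29 had an unadjusted p under 0.05.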

How the results depend on the processing

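The count of HOX genes called was 0 in each of the 5 comparisons and stayed 0 under the alternatives run other than those given next. Between kidney and liver brush it was 8 in pig 243K alone. Between brush and wire it was 2 with DESeq2. Between wire and aorta it was 2 with DESeq2, 2 with voom, 6 with liver wires alone and 0 to 4 with each replicate left out, where kidney wire 2 gave the 4. The pig as a replicate block gave 0 in the comparisons it could enter and changed no call, but it moved effect sizes. Between kidney and liver brush the HOX median went from 1.49 to 3.15, and that of all genes from 0.50 to 0.58. There HOXA10 stood at 5.29 (SE 2.03) and HOXC10 at 5.01 (SE 2.08) with the block, while HOXA5 stayed near its main value at 3.11 (SE 1.33). For brush against wire the HOX median went from 0.56 to 1.11, and for brush against blood from 0.96 to 0.99. HOX genes with kidney brush above liver brush in every library numbered 6 to 10 with each replicate left out (1.21% to 8.03% of genes). The 10 and the 8.03% were both without kidney brush 1. Leaving out a library cannot undo a separation, so a number below 6 was not possible there. Such HOX genes numbered 21 in pig 243K (43.8% of genes). After TMM scaling they numbered 7 (0.326% of genes), which lost HOXA9 and gained HOXC4 and HOXC9. Per olfactory receptor count, over the libraries with enough such counts, they numbered 5 (0.953% of genes), with 3 of the 6 kept. Detected HOX genes fell to a mean of 28 in kidney brush and 27.5 in aorta at 5 or more counts, and to 31.1 in aorta at 1000000 counts. DESeq2 gave an adjusted p for none of the 23 HOX genes between kidney and liver brush, 9 of 26 for brush against aorta and 3 of 25 for brush against blood, so its calls there cover only those genes. RLE scaling moved the median of all genes from 0.50 to 0.83 and that of HOX from 1.49 to 1.72 between kidney and liver brush, from 0.17 to 0.60 and 0.56 to 0.97 for brush against wire, and from -0.29 to -0.54 and -0.93 to -1.17 for wire against aorta.

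Signs turned for these genes. For brush against wire these were HOXA11 (-0.24; 0.38 with RLE, 0.39 with DESeq2, 0.42 with voom, 0.051 with the pig block, 8.34 in pig 248K, 1.29 in kidney), HOXB3 (0.19 with the pig block, 5.63 in pig 248K), HOXB5 (-0.10 in pig 243K), HOXC9 (-0.45; 0.31 with voom, 0.72 in pig 248K, 0.59 in kidney) and HOXD3 (0.70 with voom, 6.75 in pig 248K, 0.84 in the common fit). With a replicate left out their ranges were -0.65 to 1.28 for HOXA11, -1.13 to 0.27 for HOXB3, -0.75 to 0.47 for HOXC9 and -1.23 to 3.96 for HOXD3. For brush against aorta they were HOXA10 (-1.72 in liver), HOXC5 (-0.52; 0.10 in kidney) and HOXD4 (-0.73 with voom). For wire against aorta they were HOXB3 (-0.15 with RLE, -0.15 with DESeq2, -0.31 in liver, -0.83 to 0.51 with a replicate left out), HOXC9 (-0.041 with RLE, -0.041 with DESeq2, -0.37 with voom, -0.15 in kidney, -0.74 to 0.60) and HOXD8 (-0.14 with RLE, -0.14 with DESeq2, -0.59 to 0.56). For brush against blood they were HOXA10 (-0.53 in liver) and HOXD4 (-0.44 with voom). The causes were not tested. With 2 wires per organ, 2 sampled pigs, few genes in liver brush 1 and few counts in blood 2, these data limit what can be called.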
